A study of Mus musculus with 2 samples.

Results

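The genes described here encode enzymes that add or remove marks on histone lysines and arginines, read in 2 clones of mouse embryonic stem (ES) cells that overexpress Klf5. They were chosen by symbol: all Kdm, Kmt, Setd, Prmt, Nsd and Kat genes of the numbered families, except the sex-linked Kdm5c, Kdm5d and Kdm6a. This gave 49 genes of 18193 named on the array, read by 133 probe sets with a single gene symbol. Of these, 34 are writers, which add methyl or acetyl groups, and 15 are erasers, the Kdm demethylases. Both samples were undifferentiated E14 ES cells overexpressing Klf5, a zinc finger transcription factor of the naive pluripotent state, grown in ES medium with serum and LIF, the cytokine that sustains self-renewal. One array was hybridised per clone, and each clone is a single line, so the 2 arrays form 1 group. No source used here gives the vector or promoter that drives Klf5. The study's design sets the clones beside wild-type ES clones of another series, whose arrays were not used here, so no value below measures an effect of Klf5.

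Histone writers place methyl groups on lysine or arginine side chains, or acetyl groups on lysine, and erasers take them off. In the names of marks such as H3K4, the histone comes first and the residue after it, with K for lysine and R for arginine. H3K4 methylation lies at promoters and enhancers, H3K36 methylation along transcribed genes, H3K9 and H3K27 methylation over silent chromatin, and H4K20 methylation is tied to the cell cycle and to heterochromatin. In ES cells many developmental promoters carry H3K4 and H3K27 methylation together, and the balance of writers and erasers at such sites is studied as part of the exit from pluripotency. Most SET domain proteins methylate lysine, the Prmt enzymes methylate arginine, and the Kat enzymes acetylate lysine. Kdm1 proteins remove methyl groups with a flavin cofactor, and the other Kdm families with a Jumonji domain that uses iron. Several family members act chiefly on proteins other than histones, and they are described by their family here because the symbol set the membership.

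Signals are the authors' log2 values for 1 probe set and 1 array, on which a difference of 1 is 2-fold. Each gene was represented by its brightest probe set, and its other probe sets that passed the background in both clones are given beside it by their difference. Signals of different genes were not ranked, since probe sets bind with different strength. A background level for each array, taken from genes restricted to adult tissues, was 6.28 in clone 2 and 6.54 in clone 1. Klf5 itself had a signal of 12.25 in clone 2 and 11.61 in clone 1 by its brightest probe set. Another Klf5 probe set above background had 7.26 in clone 2 and 6.97 in clone 1. All 8 ES cell markers passed the background in both clones, among them Pou5f1 at 12.43 in clone 2 and 12.26 in clone 1. Thy1 and Pdgfrb were the 2 of 8 feeder fibroblast markers to pass in both, and the collagens Col1a1 and Col3a1 passed in neither. Of 14 measured differentiation markers Gata1 passed in both clones, Sox17 in clone 2 alone and Mesp1 in clone 1 alone. The arrays hold bulk RNA, in which fewer cells of a type and less RNA per cell cannot be told apart.

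The enzymes were broadly present. Of the 49 genes, 45 (91.8%) were above background in both clones, where 49.4% of all 18193 genes were. Prmt8 and Setd7 passed in clone 2 alone, and the demethylases Kdm4d and Kdm8 passed in neither. Thus 32 of 34 writers and 13 of 15 erasers passed in both clones. Over all 18193 genes, 599 passed in clone 2 alone and 64 in clone 1 alone. With both clones held to the higher of the background levels, a condition chosen after the data were seen, the count stayed at 45.

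**Figure D1:**
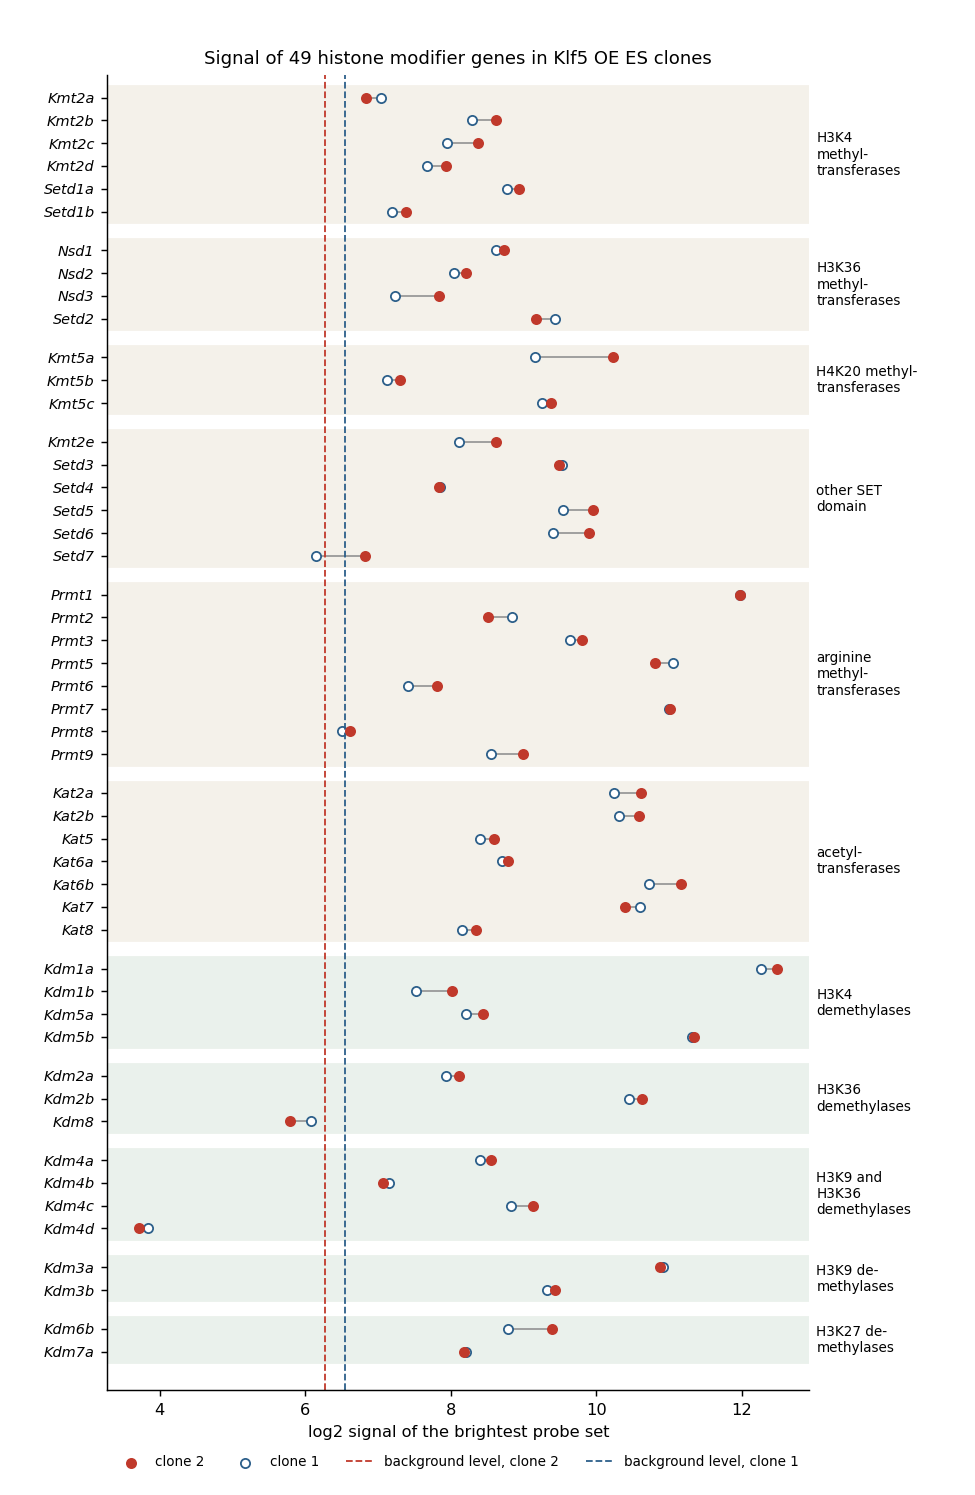
Log2 signal (horizontal axis) of the brightest probe set of each of the 49 genes, in rows grouped by role, for clone 2 (filled points) and clone 1 (open points), with 1 array per clone. Dashed lines mark the background level of each clone (6.28 in clone 2 and 6.54 in clone 1). Most rows lie to the right of both lines, and Kdm4d and Kdm8 lie to the left of both.

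The clones differed little in these genes. One gene, the H4K20 methyltransferase Kmt5a, differed 2-fold or more, where 0.477% of the 9646 genes that passed the background in at least 1 clone did. Kmt5a had a signal of 10.23 in clone 2 and 9.16 in clone 1, which is 2.10-fold higher in clone 2 (mean 9.70 ± 0.76, SD, n = 2). Quantile and loess normalization put the difference at 0.98 and 0.99, just under 2-fold. Its second probe set above background gave 9.47 in clone 2 and 8.92 in clone 1, or 0.55 more in the same direction. The remaining pair of Kmt5a probe sets was not above background in either clone. In the third of 4 bands of mean signal, which holds Kmt5a, 5 of 2409 genes, itself included, differed by at least as much. A single array per clone leaves no residual degrees of freedom, so no p-value was computed for any difference, and the rule of size is a description.

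At a finer rule of 1.5-fold, which is 0.58 on the log2 scale, 4 genes were higher in clone 2 and 0 were lower. Among all genes that passed in at least 1 clone, 3.91% were 1.5-fold higher and 0.663% were 1.5-fold lower in clone 2. The 4 genes were Kmt5a, Nsd3, Kdm6b and Setd7. Nsd3 and Kdm6b lay just inside the rule with 0.60 each, and Kmt2e lay just outside it with 0.50. Setd7 differed by 0.67, but it was below background in clone 1 and the supported difference is at least 1.21-fold. With the dimmer clone raised to its background level, a setting chosen after the data were seen, 3 genes were left at 1.5-fold, beside 3.05% of all genes. Of these 3, Nsd3 and Kdm6b came under 1.5-fold after quantile or loess normalization.

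Of the 47 genes that passed in at least 1 clone, 37 had a higher signal in clone 2 and 10 a lower one. Over all 9646 such genes 63.6% were higher in clone 2. This split moves with the scale of the arrays: 42 of 47 were higher in clone 2 after median normalization, 31 after quantile and 32 after loess normalization, when 77.4%, 48.3% and 51.6% of all genes were. The median difference was 0.18 over the 47 genes and 0.09 over all genes. With the mean of a gene's probe sets these medians were 0.08 and 0.07. By that mean 23 of 37 genes were higher in clone 2, beside 63.3% of all genes. In 4 bands of mean signal, from dim to bright, the genes described here had medians of 0.14, 0.24, 0.16 and 0.03, beside 0.10, 0.13, 0.10 and 0.04 over all genes.

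Writers and erasers did not separate by their brightest probe sets. The median difference between the clones was 0.175 over 34 writers and 0.18 over 13 erasers, on the log2 scale. The writers ranged from -0.33 (Prmt2) to 1.07 (Kmt5a), and the erasers from -0.08 (Kdm4b) to 0.60 (Kdm6b). Of the writers 27 of 34 were higher in clone 2, and of the erasers 10 of 13, beside 63.6% of all genes. These counts were 29 and 13 after median normalization, when 77.4% of all genes were higher. They were 23 and 8 after quantile (48.3% of all genes) and 23 and 9 after loess normalization (51.6%). Both medians kept their sign under each of the normalizations, with 0.06 for writers and 0.03 for erasers after quantile normalization. With the mean of a gene's probe sets they moved apart, to 0.05 for writers and 0.145 for erasers, beside 0.07 over all genes. The members share their arrays and are no replicates of a condition, so the medians were set side by side without a test.

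**Figure D2:**
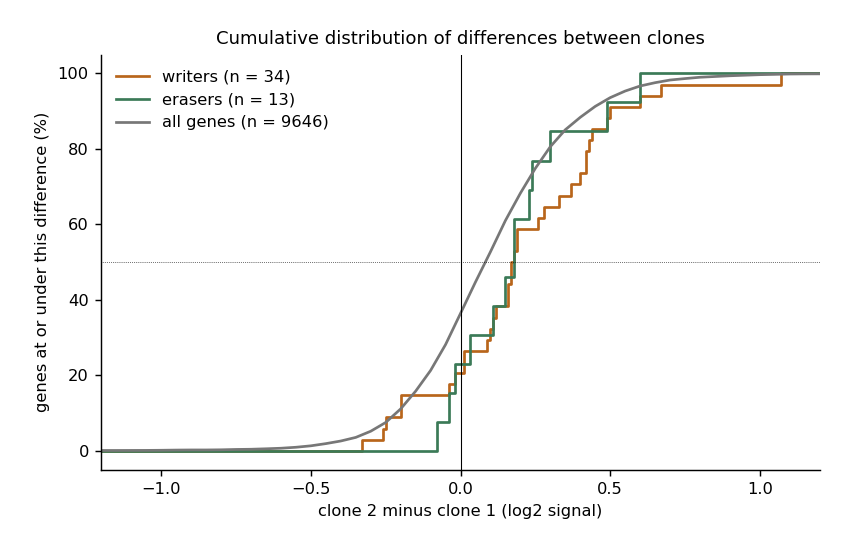
Cumulative share of genes (vertical axis, percent) at or under a given difference, clone 2 minus clone 1 (horizontal axis, log2 signal), for 34 writers, 13 erasers and the 9646 genes that passed the background in at least 1 clone. The curves of writers and erasers cross the 50% line at 0.175 and 0.18, and the curve of all genes crosses it at 0.09.

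The H3K4 methyltransferases were all above background in both clones. By their brightest probe sets 5 of 6 were higher in clone 2, beside 63.6% of all genes. That count stayed at 5 under quantile and loess normalization. With the mean of a gene's probe sets, Kmt2a, Kmt2d and Setd1a turned to the other side. Kmt2a, the mammalian trithorax homologue that maintains Hox gene expression, had a signal of 6.84 in clone 2 and 7.04 in clone 1. It was the member of this group that was lower in clone 2. Kmt2b, which methylates H3K4 at bivalent promoters in ES cells, had 8.63 in clone 2 and 8.30 in clone 1. The enhancer methyltransferases were higher in clone 2 as well. Kmt2c had 8.37 in clone 2 and 7.95 in clone 1, and 2 further probe sets above background gave differences of 0.17 and -0.07. Kmt2d had 7.94 in clone 2 and 7.68 in clone 1. Setd1a and Setd1b, the subunits that supply most H3K4 trimethylation, showed small differences. Setd1a, which early embryos need, had 8.94 in clone 2 and 8.78 in clone 1. Setd1b had 7.39 in clone 2 and 7.20 in clone 1, with a second probe set 0.37 higher in clone 2. The median of these 6 genes was 0.225.

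The erasers of the same mark were above background in both clones. All 4 were higher in clone 2 on the deposited scale, beside 63.6% of all genes. Kdm5b turned to the other side under quantile and loess normalization. Kdm1a (LSD1), which decommissions enhancers when ES cells differentiate, had a signal of 12.49 in clone 2 and 12.26 in clone 1, with 0.06 in its second probe set. Kdm1b, its relative that acts in growing oocytes, had 8.02 in clone 2 and 7.53 in clone 1, the largest difference of the group at 0.49. Kdm1b was thus 1.40-fold higher in clone 2 by its single probe set. Kdm5a, a demethylase of H3K4 trimethylation first described as a partner of the retinoblastoma protein, had 8.45 in clone 2 and 8.21 in clone 1. Kdm5b, which removes the same mark, had 11.35 in clone 2 and 11.32 in clone 1. Its second probe set above background differed by 0.02. The 4 erasers had a median of 0.235, beside 0.225 for the 6 writers of the mark.

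Of the H3K36 methyltransferases Nsd3 stood out. The Nsd enzymes dimethylate H3K36, and all 3 were higher in clone 2 by their brightest probe set, where 63.6% of all genes were. Nsd1 turned to the other side under quantile and loess normalization. Nsd1 had a signal of 8.73 in clone 2 and 8.63 in clone 1. Nsd2, the enzyme deleted in the human Wolf-Hirschhorn syndrome, had 8.21 in clone 2 and 8.04 in clone 1, while another probe set above background differed by -0.39. Nsd3 had 7.84 in clone 2 and 7.24 in clone 1 (mean 7.54 ± 0.42, SD, n = 2), or 1.52-fold higher in clone 2. A second Nsd3 probe set passed in clone 2 alone, at 6.56 against 6.27 in clone 1. Setd2, which trimethylates H3K36 behind RNA polymerase, was lower in clone 2, at 9.18 against 9.44 in clone 1. The group held differences of either sign.

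Erasers of H3K36 and of H3K9 showed differences of at most 0.30 by their brightest probe sets. Kdm2a, which binds unmethylated CpG islands, had 8.12 in clone 2 and 7.94 in clone 1, with -0.01 in its second probe set. Kdm2b, which brings a Polycomb complex to CpG islands in ES cells, had 10.63 in clone 2 and 10.45 in clone 1. Its second probe set was 0.60 higher in clone 2, so the probe sets share a direction and differ in size. Among the Kdm4 enzymes, which act on trimethylated H3K9 and H3K36, Kdm4c had the largest difference, with 9.13 in clone 2 and 8.83 in clone 1. Kdm4a had 8.56 in clone 2 and 8.41 in clone 1. Kdm4b had 7.07 in clone 2 and 7.15 in clone 1, and this order turned under median normalization. Kdm4d, known from testis, was below background at 3.72 in clone 2 and 3.84 in clone 1. Kdm8, a Jumonji protein whose demethylase activity is disputed, was also below it, at 5.79 in clone 2 and 6.08 in clone 1.

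The H3K9 demethylases were close to level. Kdm3a, which acts on mono- and dimethylated H3K9, had 10.88 in clone 2 and 10.92 in clone 1. Kdm3b, its paralogue, had 9.44 in clone 2 and 9.33 in clone 1, while a second probe set had 6.57 in clone 2 and 6.73 in clone 1. Kdm3a turned to the other side under median normalization. Erasers of H3K27 were Kdm6b and Kdm7a. Kdm6b (Jmjd3), which removes the Polycomb mark during lineage entry, had 9.39 in clone 2 and 8.79 in clone 1 by its brightest probe set, or 0.60 more in clone 2. A second Kdm6b probe set went the other way, with 7.57 in clone 2 and 8.04 in clone 1. A probe set assigned to Kdm6b and 1700064E03Rik together, which was left out of the counts, read 9.16 in clone 2 and 9.57 in clone 1. The direction of Kdm6b therefore depends on the probe set. Kdm7a, which demethylates H3K9 and H3K27, had 8.19 in clone 2 and 8.21 in clone 1, with 0.08 in its second probe set, and turned to the other side under median normalization.

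Enzymes of H4K20 methylation were all higher in clone 2 by their brightest probe sets, where 63.6% of all genes were. Kmt5a (Set8), the monomethyltransferase whose protein is destroyed in S phase, had the largest difference. Kmt5b, which adds the further methyl groups, had a signal of 7.30 in clone 2 and 7.13 in clone 1. Its other 3 probe sets above background differed by 0.03, -0.09 and -0.19. Kmt5c, the paralogue at pericentric heterochromatin, had 9.38 in clone 2 and 9.26 in clone 1. The difference of Kmt5a, 1.07, is thus set beside 0.17 and 0.12 in its paralogues.

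The other SET domain genes had a median difference of 0.455 over 6 genes, beside 0.09 over all genes. Of the 6 genes, 4 were higher in clone 2, beside 63.6% of all genes. Setd7, below background in clone 1, enters the median of 0.455 at its full difference. With clone 1 raised to its background level the median of the 6 genes was 0.35. Kmt2e, which reads H3K4 trimethylation and has no established catalytic activity, had 8.62 in clone 2 and 8.12 in clone 1. Its probe sets disagreed, since another read 7.38 in clone 2 and 8.17 in clone 1, and a further one differed by 0.04. Setd5, a chromatin regulator with a SET domain of disputed activity, had 9.96 in clone 2 and 9.54 in clone 1, and a second probe set differed by 0.33. Setd6, which methylates the NF-kB subunit RelA, had 9.90 in clone 2 and 9.41 in clone 1. A second Setd6 probe set differed by 0.65, so both put Setd6 higher in clone 2. Setd7, an enzyme that monomethylates H3K4 in vitro and many other proteins, had 6.82 in clone 2 and 6.15 in clone 1, below background there. Setd3, the actin histidine methyltransferase, had 9.49 in clone 2 and 9.53 in clone 1. Setd4 had 7.84 in clone 2 and 7.86 in clone 1, with -0.21 in its second probe set. These last 2 genes were level between the clones by their brightest probe sets and turned to the other side under median normalization.

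Arginine methyltransferases had a median of 0.06, with 6 of 8 higher in clone 2, beside 0.09 and 63.6% over all genes. After quantile and loess normalization 4 of 8 were higher, beside 48.3% and 51.6% of all genes. Prmt1, which makes most asymmetric dimethylarginine, had 11.98 in clone 2 and 11.97 in clone 1. Prmt7, which stops at monomethylarginine, had 11.01 in clone 2 and 0.01 less in clone 1. Both turned to the other side under quantile and loess normalization. Prmt5, the main source of symmetric dimethylarginine and needed for pluripotency in the mouse embryo, was lower in clone 2, at 10.81 against 11.06 in clone 1. Prmt2, a coactivator of nuclear receptors, was lower too. It had 8.52 in clone 2 and 8.85 in clone 1, and its second probe set had 8.18 in clone 2 and 8.53 in clone 1. Prmt2 was thus lower in clone 2 by 0.33 and 0.35 in its 2 probe sets. Prmt6, which methylates H3R2, had 7.81 in clone 2 and 7.41 in clone 1. Prmt9, which methylates a splicing factor, had 8.99 in clone 2 and 8.56 in clone 1, with a second probe set 0.16 higher in clone 2. Prmt3, which acts on a ribosomal protein, had 9.80 in clone 2 and 9.64 in clone 1, with 0.24 and -0.16 in 2 further probe sets, so its probe sets do not share a direction. Prmt8, a membrane-bound enzyme of the brain, had 6.62 in clone 2 and 6.51 in clone 1, which bounds its difference at no less than 1.05-fold.

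All 7 acetyltransferases passed the background in each clone. The median of their differences was 0.19, with 6 of 7 higher in clone 2, beside 0.09 and 63.6% over all genes. After quantile and loess normalization 5 of 7 were higher, beside 48.3% and 51.6% of all genes. Kat2a (Gcn5), a catalytic subunit of the SAGA coactivator, had 10.61 in clone 2 and 10.24 in clone 1. One further Kat2a probe set differed by 0.40 and another by -0.05. Kat2b (PCAF), its paralogue, had 10.59 in clone 2 and 10.31 in clone 1, with -0.07 in its second probe set. Kat6b, of the MOZ and MORF family, had the largest difference of the group, with 11.16 in clone 2 and 10.72 in clone 1. Kat6a, its paralogue, had 8.79 in clone 2 and 8.70 in clone 1, which turned to the other side under quantile and loess normalization. Kat7 (Hbo1), which acetylates H3K14 and licenses replication origins, was lower in clone 2, at 10.40 against 10.60 in clone 1. Kat5 (Tip60), which ES cells need for self-renewal, had 8.59 in clone 2 and 8.41 in clone 1. Its second probe set went the other way with a difference of -0.14. Kat8 (Mof), the H4K16 acetyltransferase, had 8.35 in clone 2 and 8.16 in clone 1.

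**Figure D3:**
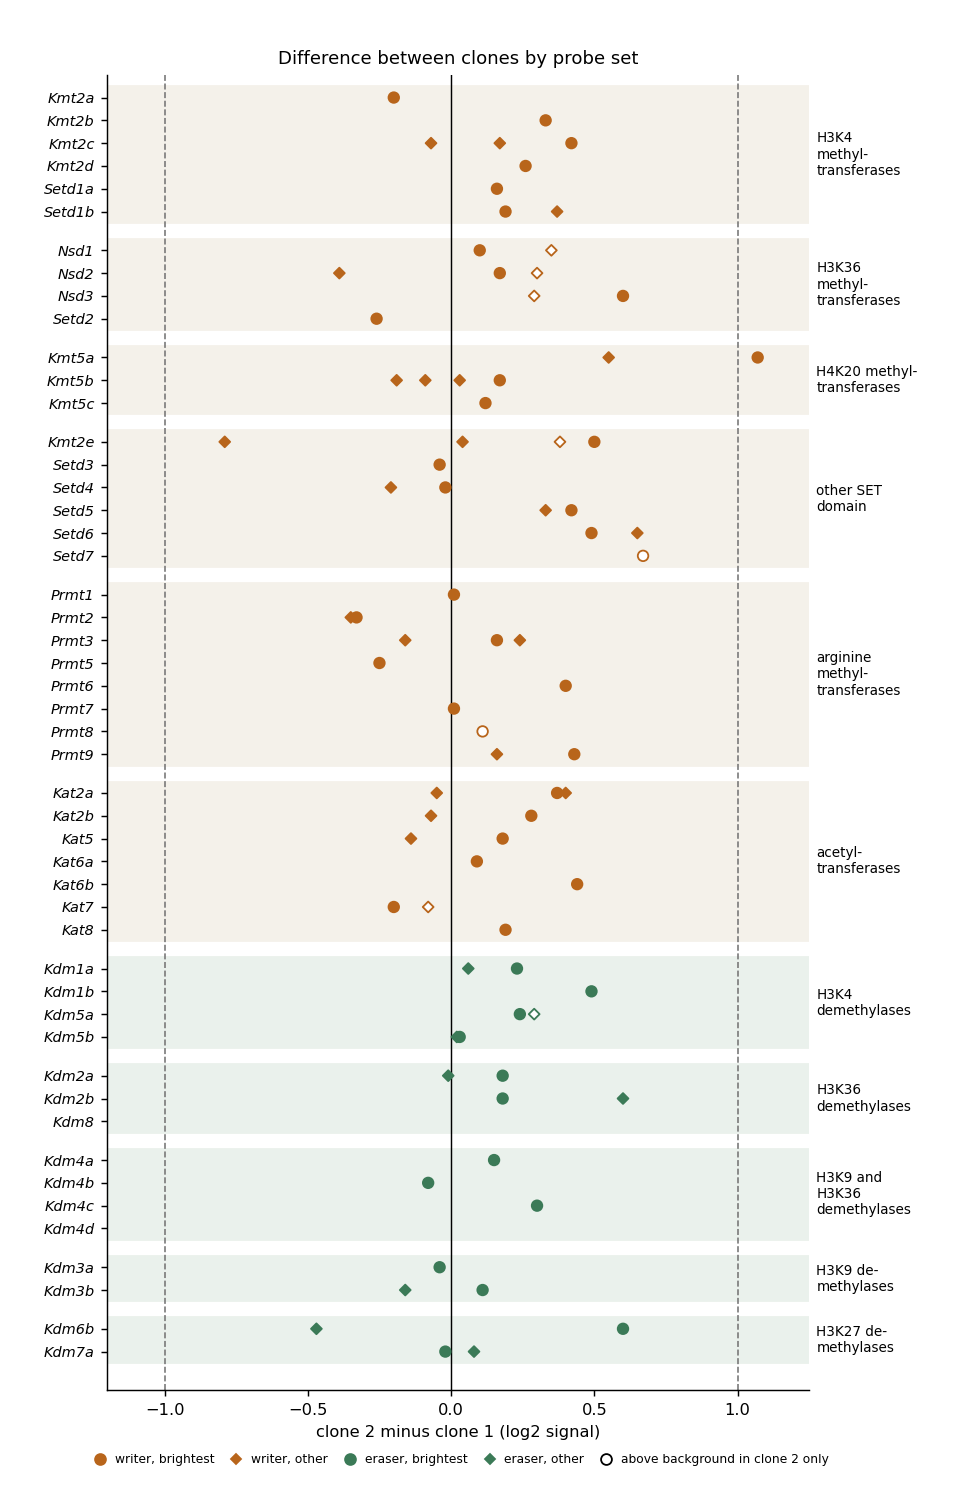
Difference in log2 signal, clone 2 minus clone 1 (horizontal axis), of each probe set above background in at least 1 clone, by gene and role, with writers in orange and erasers in green. Circles are the brightest probe set of a gene, diamonds the others, open symbols passed in clone 2 alone, and dashed lines mark 2-fold. The circle of Kmt5a lies beyond the right dashed line, and Kmt2e and Kdm6b have symbols on both sides of 0.

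Probe sets of one gene gave a repeat reading of the same RNA on the same array. Of the 133 probe sets 73 were above background in both clones, 8 in clone 2 alone and 52 in neither. Of all 45037 probe sets on the array, 16952 passed in clone 2 and 15629 in clone 1, where the background level was higher. A Kat7 probe set among the 8 was lower in clone 2, at 6.32 against 6.40 in clone 1. Among 22 genes with at least 2 probe sets above background in both clones, 12 had probe sets of opposite sign, where 48% of 3469 such genes did. The brightest and next brightest probe sets went the same way in 13 of 22 genes, and in 57.9% of all such genes. The median gap between their differences was 0.22 on the log2 scale, and 0.20 over all genes. This gap is as large as the median absolute difference between the clones, 0.20 over the 47 genes. A further 23 genes had 1 probe set above background in both clones and so no repeat reading. The genes whose probe sets above background in both clones all shared a sign included Kmt5a, Setd6, Setd5, Prmt9, Setd1b and Prmt2.

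**Figure D4:**
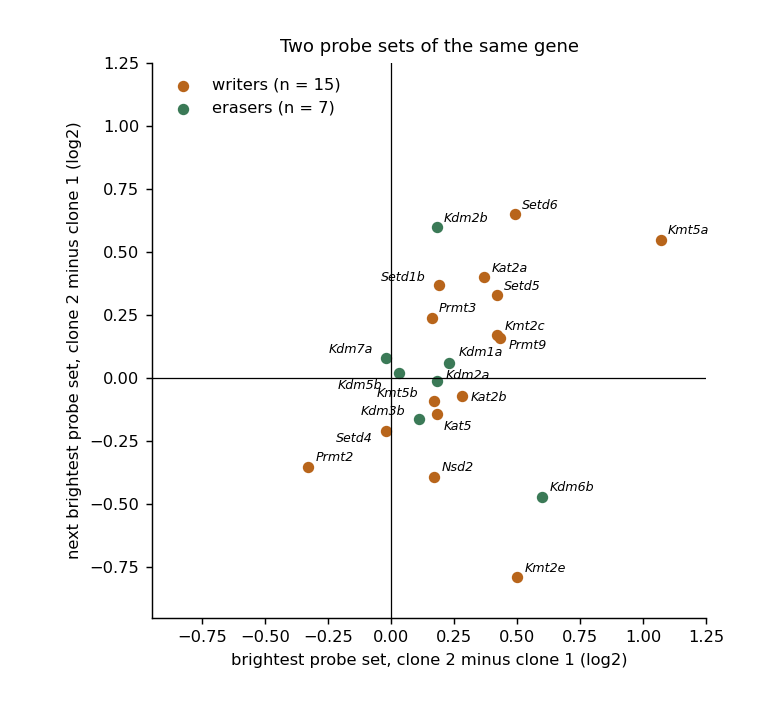
Difference in log2 signal, clone 2 minus clone 1, of the brightest probe set (horizontal axis) and of the next brightest one (vertical axis) for the 22 genes with at least 2 probe sets above background in both clones, with writers in orange and erasers in green. Points at the upper right and lower left, 13 in all, have probe sets of the same sign. Kdm6b and Kmt2e lie far below the horizontal zero line.

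Promoters are shown for genes above background in both clones whose passing probe sets share a sign. They are the 3 largest differences in each direction that the promoter table holds. Kdm1b, Setd2 and Prmt5 have a single probe set each, so the condition on sign could not fail for them. Klf proteins bind GC-rich letters, and the search was for CCNCNCCC and its reverse complement GGGNGNGG, with overlapping matches counted. Sequences are RefSeq's, build GRCm38.p6, from 250 bases before the gene's most upstream start to 50 after it, written 5′ to 3′ on the gene's strand with matches in capitals.
Kmt5a, chr5:124439680-124439979, plus strand: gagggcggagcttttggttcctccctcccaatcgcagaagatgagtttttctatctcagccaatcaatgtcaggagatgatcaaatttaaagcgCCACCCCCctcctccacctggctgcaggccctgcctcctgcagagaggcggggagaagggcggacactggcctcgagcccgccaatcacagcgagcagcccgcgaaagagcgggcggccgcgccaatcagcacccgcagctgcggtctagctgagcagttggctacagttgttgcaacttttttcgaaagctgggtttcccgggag
Setd6, chr8:95715663-95715962, plus strand: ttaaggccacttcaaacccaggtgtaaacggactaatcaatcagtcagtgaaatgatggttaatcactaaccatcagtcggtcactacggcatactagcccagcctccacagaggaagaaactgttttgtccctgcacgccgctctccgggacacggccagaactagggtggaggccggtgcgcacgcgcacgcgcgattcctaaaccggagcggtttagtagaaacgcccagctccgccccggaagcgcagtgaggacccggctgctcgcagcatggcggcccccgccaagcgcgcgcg
Kdm1b, chr13:47043249-47043548, plus strand: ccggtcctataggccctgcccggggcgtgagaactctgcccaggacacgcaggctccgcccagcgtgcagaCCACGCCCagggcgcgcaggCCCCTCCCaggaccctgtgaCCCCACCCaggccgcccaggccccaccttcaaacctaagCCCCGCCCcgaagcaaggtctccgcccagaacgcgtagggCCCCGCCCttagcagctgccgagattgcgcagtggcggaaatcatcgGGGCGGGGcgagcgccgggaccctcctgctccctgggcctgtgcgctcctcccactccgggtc
Prmt2, chr10:76237816-76238115, minus strand: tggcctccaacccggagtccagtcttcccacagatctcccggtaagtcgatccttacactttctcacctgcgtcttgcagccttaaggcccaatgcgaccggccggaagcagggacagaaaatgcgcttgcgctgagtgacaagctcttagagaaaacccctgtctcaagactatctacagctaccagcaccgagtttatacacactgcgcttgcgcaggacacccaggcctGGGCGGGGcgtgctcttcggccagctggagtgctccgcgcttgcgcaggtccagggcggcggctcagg
Setd2, chr9:110532347-110532646, plus strand: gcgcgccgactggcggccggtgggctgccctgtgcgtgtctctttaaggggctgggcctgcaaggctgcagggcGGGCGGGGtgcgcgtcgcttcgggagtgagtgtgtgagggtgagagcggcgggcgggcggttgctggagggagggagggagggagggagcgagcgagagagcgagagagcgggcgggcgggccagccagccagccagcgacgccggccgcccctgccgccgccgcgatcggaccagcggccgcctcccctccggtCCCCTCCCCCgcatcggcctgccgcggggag
Prmt5, chr14:54517421-54517720, minus strand: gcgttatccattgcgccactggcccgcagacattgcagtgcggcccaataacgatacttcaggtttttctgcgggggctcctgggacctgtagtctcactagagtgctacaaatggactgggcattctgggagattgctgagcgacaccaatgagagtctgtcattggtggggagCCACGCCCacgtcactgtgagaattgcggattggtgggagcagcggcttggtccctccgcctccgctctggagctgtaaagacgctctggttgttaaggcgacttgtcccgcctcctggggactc
Setd6 and Kdm1b, both 0.49 higher in clone 2, held 0 and 6 matches. Kmt5a held 1 match in this window. Its other 2 starts in the table held 0 and 5. Among the genes lower in clone 2, Prmt2 and Prmt5 held 1 match each, and Setd2 held 3, of which 2 overlap. Setd7, not shown because it was below background in clone 1, held 0. With so few windows the letters were not compared between the directions.

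The table held promoters for 37 of the 49 genes. Kat6a, Kdm2a, Kdm3b, Kdm4b, Kdm5a, Kdm6b, Kmt2b, Kmt2e, Nsd1, Nsd2, Nsd3 and Setd1b were not matched. At the most upstream start, 23 of 37 (62.2%) held the letters, as did 49.2% of 27025 genes. Writers held them in 16 of 27 and erasers in 7 of 10. The 37 promoters had a median of 21 CpG pairs and 60% G and C, beside 7 and 52.7% over all genes. A match is a run of letters and not a binding site, and the part of base composition in these shares was not tested.

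Partners of these enzymes were also present. Of 46 subunits of writer and eraser complexes, 44 were above background in both clones, Rcor3 in clone 2 alone and Ing4 in neither. Over all genes 49.4% were above background in both. Among the 45 that passed in at least 1 clone, 38 (84.4%) were higher in clone 2 and 6 lower, with a median difference of 0.18 and 0 genes at 2-fold. Of all such genes 63.6% were higher, with a median of 0.09 and 0.477% at 2-fold. This list was read on the deposited scale alone. On other scales the share over all genes moved, to 48.3% after quantile and 51.6% after loess normalization. The largest differences of the list were those of Kansl1, Tada2b and Ing3. Kansl1, a subunit of the Kat8 complex NSL, had 8.38 in clone 2 and 7.79 in clone 1. Tada2b, a subunit of SAGA with Kat2a, had 7.58 in clone 2 and 7.05 in clone 1. Ing3, a subunit of the Kat5 complex, had 9.03 in clone 2 and 8.52 in clone 1. Within NSL the brightest probe sets did not share a direction: Kansl2 and Kansl3, which belong to it with Kansl1, differed by -0.22 and -0.16. Both values are near 0.20, the median gap over all genes between the brightest and next brightest probe sets. Meaf6, a subunit of several Kat complexes, had the lowest difference of the 45, -0.32.

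Of 47 measured enzymes on histones that the symbols left out, such as Ezh2, Ehmt2, Dot1l, Ep300 and the Hdac and Sirt deacetylases, 38 passed in both clones. That is 80.9%, where 49.4% of all genes did. Among the 40 that passed in at least 1 clone, 25 (62.5%) were higher in clone 2 and 15 lower, with a median of 0.05 and 0 genes at 2-fold. That share is close to the 63.6% over all genes, whose median was 0.09, and this list too was read on the deposited scale alone. Phf2, a Jumonji protein related to Kdm7a, had 6.95 in clone 2 and was below background in clone 1 at 6.15, so its signal in clone 2 was at least 1.33-fold higher. Smyd1, a SET domain protein of muscle, went the other way, below background in clone 2 at 6.16 and above it in clone 1 at 6.69, at least 1.33-fold lower in clone 2. It was named after its values were seen, as were Kansl2, Kansl3 and Meaf6. Sirt1, an NAD-dependent deacetylase, had 9.29 in clone 2 and 8.66 in clone 1. Smyd5, a SET domain enzyme, had 9.28 in clone 2 and 8.70 in clone 1. Sirt1 was the one gene of this list above background in both clones to differ by 1.5-fold.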

How the data were processed

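Total RNA of 2 clones was measured on 1 array each. The log2 signals that the authors deposited, 1 per probe set and array, come from Transcriptome Analysis Console, according to the submitters' processing notes. In the sources used here its version, background correction and normalization are not given, and base 2 was inferred from the range of 2.21 to 14.38. Values were used as deposited. The precision is limited by the number of arrays.

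Of 45037 probe sets 34945 had 1 gene symbol, 932 several and 9160 none listed. Entrez identifiers of 34741 matched the gene table of GRCm38.p6, which changed 0 symbols. Background was the 95th percentile of 73 probe sets of 49 measured genes (56 listed: milk proteins, crystallins, digestive enzymes, lymphocyte receptors). Differences are clone 2 minus clone 1. A gene was called at 2-fold with the higher clone above background; bounds raise the dimmer clone to its background level. The naming rule took all genes chosen by symbol, the 5 largest differences in each direction, genes whose probe sets differ in sign and the 3 largest differences of each further list. Genes and lists were chosen with earlier results of these data known. A run on simulated differences checked that the code returned them and applied the fold rule. It did not cover disagreement between probe sets or a shift in the scale of an array. Alternatives were normalization, background level and choice of probe sets, computed with Python 3.11.15, pandas 2.3.3, numpy 2.4.6 and statsmodels 0.14.6 (loess span 0.3).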

Additional observations from a re-analysis of the deposited data

How the results depend on the processing

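The count of genes above background in both clones was 45 under each normalization and 45 to 48 with other background levels. It was 41 of the 46 genes left without probe sets that may bind several transcripts. With the mean of a gene's probe sets it was 30, at the limit of 1.5 times set for an unchanged count, beside 38.9% of all genes. With no filter all 49 passed, as every gene then must. Each clone alone gave 45 to 47, which cannot be under the count for both. Raising the dimmer clone to its background level, chosen after the data were seen, left the count at 2-fold at 1. The count at 2-fold, 1 on the deposited scale (Kmt5a), was 0 under quantile and 0 under loess normalization, where Kmt5a fell just short, 0 with the mean of a gene's probe sets, where Kmt5a differed by 0.34 (0.81 over its 2 probe sets above background in both clones), and 4 with the 1.5-fold rule. Under that mean 0 genes reached 1.5-fold. The median difference of erasers was 0.03 under quantile normalization. With the mean of a gene's probe sets the medians were 0.05 for writers and 0.145 for erasers, beside 0.07 over all genes. Neither median changed sign under any alternative. Among single genes, quantile and loess normalization turned the sign of Kat6a, Kdm5b, Nsd1, Prmt1 and Prmt7. Median normalization turned Kdm3a, Kdm4b, Kdm7a, Setd3 and Setd4. The mean over probe sets turned 9 genes: Kat6a, Kdm3b, Kmt2a, Kmt2d, Kmt2e, Kmt5b, Prmt3, Prmt7 and Setd1a. Leaving out probe sets that may bind several transcripts turned Kat2b and Setd3. No paired analysis was possible because both arrays belong to 1 group. With 1 array per clone, clone and array cannot be told apart.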
